A study of Marchantia polymorpha and Arabidopsis thaliana with 40 samples.

Results

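The heat response of Marchantia polymorpha plants without HSFB1 was described from 4 ATAC-seq libraries of the hsfb1 knockout, 2 from plants kept at 22 °C and 2 from plants held at 37 °C for 1 h. These are all the hsfb1 libraries of the heat experiment, taken by their labels, and they are 4 of the 40 libraries in the series. Every one of the 40873 accessible regions counted for the Marchantia heat experiment was used. Marchantia polymorpha is a liverwort, and gemmalings are the young plants that grow from its asexual propagules. Whole gemmalings were sampled at day 7 under continuous light, and DAPI-stained nuclei were sorted from them before tagmentation, which was run at 37 °C for every library, controls included. Heated and control plants of 3 other genotypes entered the fit, with 2 libraries in each group: the wild type Tak-1, a male accession, the hsfa1 knockout, and dko, which lacks both HSFA1 and HSFB1. hsfb1 therefore shares the loss of HSFB1 with dko and differs from it in still holding HSFA1. The labels name 1 line for each mutant, b1-70 for hsfb1, a1-8 for hsfa1 and a1,b1-62 for dko, so an effect of the mutation and one of that line cannot be told apart. They do not say that replicates came from separate plants or cultures, so p-values measure the spread between these libraries, which may be technical.

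Heat shock transcription factors (HSFs) bind heat shock elements in the promoters of genes such as those of chaperones. Class A factors carry an activation domain and switch such genes on during heat, while class B factors lack it and are known in flowering plants mostly as repressors or co-regulators. In ATAC-seq the Tn5 transposase inserts adapters into DNA that is not covered by nucleosomes or other proteins, so the read count of a region measures how accessible that region was on average over all nuclei. In whole plants, more nuclei of a cell type in which a region is open and more openness per nucleus cannot be told apart. No annotation of the genome build of the files was used here, so regions are given by their position alone, the knocked-out genes could not be read in the libraries, and no sequence is printed.

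The hsfb1 libraries held 29.6 and 22.2 M counts at 22 °C and 27.1 and 29.1 M after heat, within the range of 21.2 to 71.2 M over the 16 libraries of the experiment. Replicates ranked the regions alike, with Spearman's rho of 0.986 across regions at 22 °C and 0.993 after heat. The control pair differed beyond counting noise by more than the heated pair, with a chi-square per region of 9.49 against 2.83, where 1 would be counting noise alone. For the other genotypes it was 24.5 and 24.2 in Tak-1 and between 2.44 and 4.05 in hsfa1 and dko. This value grows with the number of counts, so it does not compare libraries of unlike depth. The SD of the log2 difference between replicates was 0.276 in the hsfb1 controls and 0.203 after heat. It was 0.366 and 0.27 in Tak-1 and 0.19 to 0.237 in hsfa1 and dko. The median region held 358 counts per hsfb1 library, and the regions were 63 to 5432 bp wide with a median of 435.

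Heat changed the accessibility of 6125 regions in hsfb1, which is 15% of all regions at an adjusted p under 0.05 by the quasi-likelihood test of edgeR, adjusted after Benjamini and Hochberg. Of these, 2531 regions (6.19% of all) rose and 3594 (8.79%) fell. Most changes were small: the regions that rose had a median log2 change of 0.57, with quartiles of 0.43 and 0.85, and those that fell a median of -0.76, with quartiles of -0.99 and -0.56. More than 2-fold changes were found in 444 regions that rose (1.09%) and 884 that fell (2.16%), and more than 4-fold changes in 54 (0.132%) and 32 (0.0783%). In 2530 of the 2531 regions that rose, both heated libraries lay above both controls, and in 3592 of the 3594 that fell both lay below, beside 29.3% and 29.6% of all regions with such an upward or downward order. The calls were made from the same 4 libraries and favour such an order, so these counts add no support to them. The regions that rose together held 3.99% and 4.03% of the counts of the control libraries and 5.79% and 5.80% of those of the heated ones. Those that fell went from 4.67% and 5.13% to 3.13% and 2.97%.

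**Figure D1:**
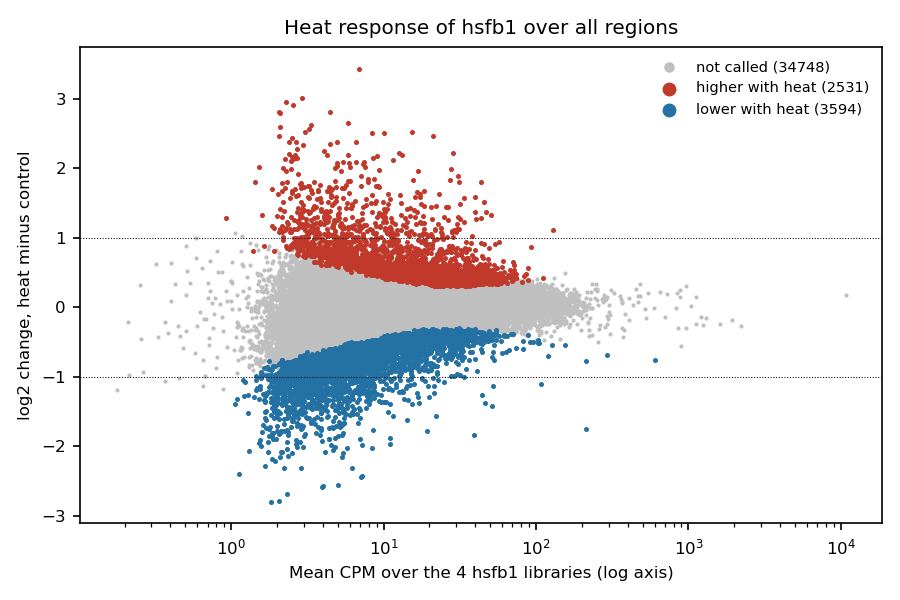
Log2 change with heat in hsfb1 (vertical axis) against the mean CPM, the counts scaled to the library total, over the 4 hsfb1 libraries (horizontal log axis), 1 point per region, with 2531 regions higher and 3594 lower at an adjusted p under 0.05. Dotted lines mark 2-fold changes, and the regions above and below them lie mostly at the lower CPM values.

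The balance between rising and falling regions depended on the scaling, on the filter and on single libraries. With loess offsets in place of TMM scaling, 3283 regions rose and 3449 fell. The order turned when regions were required to hold a mean of at least 50 counts, with 3115 rising and 2998 falling. It also turned without heated replicate 2, to 1241 rising and 1016 falling regions. Without control replicate 2 there were 1683 and 1913, and without heated replicate 1 there were 1441 and 1467. The regions that fell over 2-fold numbered 571 without heated replicate 2 and 469 with loess offsets.

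The highest change belonged to a region of 284 bp on chromosome 6, from 23014005 to 23014289. Its level, in CPM scaled by TMM, was 0.944 and 1.41 in the hsfb1 controls and 11.8 and 13.3 in the heated hsfb1 libraries, a log2 change of 3.43 (SE 0.25, adjusted p = 1.81e-10 by edgeR). Heated hsfb1 thus lay close to heated Tak-1, which had 11.1 and 10.6 CPM. In hsfa1 the same region stayed between 0.279 and 0.634 CPM and in dko between 0.296 and 0.615 CPM, with no separation of heated from control libraries that passed the test. The hsfb1 response exceeded that of hsfa1 by 4.04 (SE 0.52, adjusted p = 1.53e-05) and that of dko by 2.97 (SE 0.49, adjusted p = 0.000611).

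On chromosome 7 a pair of neighbouring regions rose together. The region from 10377869 to 10378033 went from 0.683 and 0.600 CPM to 5.08 and 5.39 CPM (log2 change 3.01, SE 0.29, adjusted p = 2.56e-08 by edgeR). The region from 10378549 to 10378833 went from 1.11 and 1.84 CPM to 6.78 and 8.01 CPM (log2 change 2.35, SE 0.31, adjusted p = 3.16e-06). The groups of hsfb1 libraries did not overlap in either. In heated hsfa1 and dko the first region lay between 0.342 and 0.669 CPM and the second between 0.363 and 0.758 CPM, and neither passed the test there.

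The other 8 of the 10 regions with the highest change in hsfb1 rose by log2 changes of 2.59 to 2.95 from control levels of 0.391 to 2.14 CPM, and in all of them the heated libraries lay above the controls. All of these 8 also passed the test upwards in wild type. The one on chromosome 6 from 21511931 to 21512229 had 1.04 and 1.20 CPM in the hsfb1 controls and 7.71 and 7.98 CPM after heat (2.81, SE 0.29). It fell in hsfa1 (-0.97, adjusted p = 0.038 by edgeR), where the heated libraries held 0.456 and 0.864 CPM, and its change in dko was -0.29 (adjusted p = 0.646). On chromosome 8, by contrast, the region from 17941921 to 17942319 rose in every genotype. It went from 1.11 and 2.14 to 9.84 and 10.2 CPM in hsfb1 (2.66, SE 0.26), while the log2 change was 2.56 in wild type, 1.41 in dko and 1.35 in hsfa1. Its response in hsfb1 missed the threshold for a difference from that in hsfa1 (1.30, SE 0.40, adjusted p = 0.0525) and in dko (1.25, SE 0.37, adjusted p = 0.0587).

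**Figure D2:**
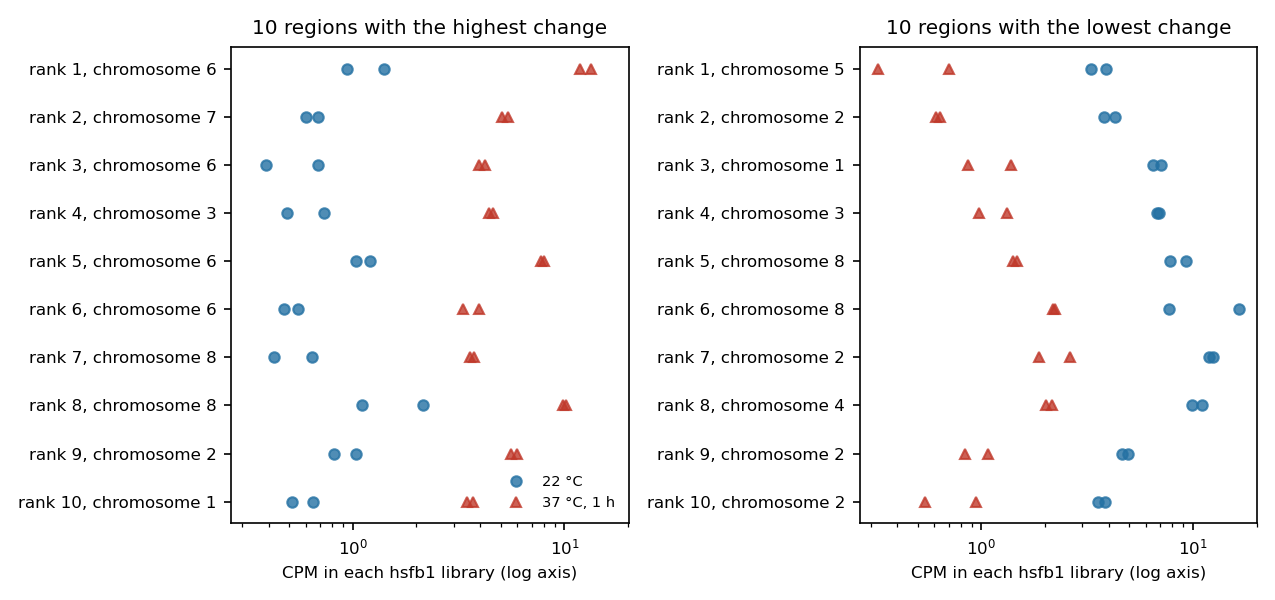
CPM of each of the 4 hsfb1 libraries (horizontal log axis) for the 10 highest and the 10 lowest log2 changes among called regions with a mean of at least 50 counts, 1 line of points per region. Circles are libraries at 22 °C and triangles libraries after 1 h at 37 °C. They do not overlap in any of the 20 regions, an order that calling regions from these libraries favours.

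Measured by the gain in CPM, 4 wide regions stood first. The chromosome 5 region from 22401141 to 22403282, 2141 bp wide, held 18.0 and 21.1 CPM in the hsfb1 controls and 67.6 and 68.4 CPM after heat (log2 change 1.80, SE 0.12, adjusted p = 3.45e-11 by edgeR). The response exceeded that of hsfa1, where the region fell (-0.36), by 2.17 (adjusted p = 6.3e-09) and that of dko, where it rose by 0.33, by 1.47 (adjusted p = 3.42e-06). The chromosome 2 region from 3009433 to 3011935 had the same order of genotypes at smaller differences. It went from 24.1 and 23.4 to 65.2 and 70.2 CPM in hsfb1 (1.51, SE 0.12) and rose by 1.74 in wild type, by 0.45 without HSFA1 and by 0.62 without both factors. On chromosome 4 the region from 13310613 to 13313575 went from 70.6 and 59.5 to 115 and 123 CPM in hsfb1 (0.87, SE 0.13), and this response exceeded that of dko by 0.63 (adjusted p = 0.0498 by edgeR). That difference missed the threshold under 9 of the other settings and left-out libraries tried, with adjusted p up to 0.216.

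The largest gain in CPM lay on an unplaced scaffold and had another pattern. The scaffold unplaced-scaffold_330, from 3107 to 4395, held 86.7 and 77.1 CPM in the hsfb1 controls and 182 and 174 CPM after heat (1.12, SE 0.16, adjusted p = 1.26e-05 by edgeR). It rose in all genotypes, and by 2.43 in dko from controls of 26.8 and 20.6 CPM, so that the hsfb1 response was lower than that of dko, with a difference of -1.31 (adjusted p = 0.00107) and heated dko at 142 and 114 CPM.

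The lowest change among regions with at least 50 counts belonged to chromosome 5 from 5124492 to 5124642, at 3.9 and 3.3 CPM in the hsfb1 controls and 0.324 and 0.707 CPM after heat (log2 change -2.79, SE 0.34, adjusted p = 9.43e-07 by edgeR). It passed the test downwards in the other genotypes too, with log2 changes of -2.47 (Tak-1), -1.75 (hsfa1) and -1.21 (dko). The chromosome 2 region from 8023689 to 8024080 started from a higher level, with 11.9 and 12.5 CPM at 22 °C and 1.87 and 2.63 CPM after heat (-2.43, SE 0.19, adjusted p = 4.68e-10). It fell by 2.50 in dko, 2.06 in hsfa1 and 1.27 in Tak-1, so the change in hsfb1 lay nearer to the other mutants than to wild type, while its difference from Tak-1 missed the threshold (-1.16, SE 0.25, adjusted p = 0.115). The chromosome 4 region from 11334206 to 11334762 went from 11.0 and 9.86 to 2.16 and 2.02 CPM in hsfb1 (-2.32, SE 0.21) and fell in the other 3 genotypes as well.

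Of the 10 regions with the lowest change, 9 fell in all 4 genotypes. The exception was on chromosome 8 from 7488465 to 7488669. Its hsfb1 controls differed among themselves, at 7.71 and 16.5 CPM, before both heated libraries at 2.23 and 2.19 CPM (-2.44, SE 0.48, adjusted p = 0.000717 by edgeR). It fell in hsfa1 and missed the threshold in Tak-1 (adjusted p = 0.107) and dko (adjusted p = 0.193), where the control pairs also lay apart, at 6.11 and 1.11 CPM in the former and 5.34 and 2.90 CPM in the latter. The difference from another mutant passed the test for 2 of the 10. The chromosome 3 region from 13197176 to 13197458 went from 6.93 and 6.77 to 1.33 and 0.976 CPM in hsfb1, and its response was lower than that of hsfa1, with a difference of -1.47 (SE 0.35, adjusted p = 0.013). For the chromosome 5 region named first, the response was lower than that of dko, with a difference of -1.58 (SE 0.45, adjusted p = 0.0497). These differences missed the threshold under 4 and 10 of the other settings and left-out libraries tried, with adjusted p up to 0.12 and 0.349.

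The largest losses in CPM lay on chromosome V and on unplaced scaffolds, and in 3 of the 4 regions the control libraries lay further apart than in the remaining one. Chromosome V from 7408048 to 7409441 held 619 and 890 CPM at 22 °C and 491 and 405 CPM after heat (-0.75, SE 0.26, adjusted p = 0.044 by edgeR). Its neighbour from 7405048 to 7406354 held 247 and 408 CPM and then 111 and 82.7 CPM (-1.76, SE 0.41, adjusted p = 0.00337). The scaffold unplaced-scaffold_432, from 5236 to 7347, went from 311 and 414 to 238 and 215 CPM (-0.68, SE 0.18, adjusted p = 0.0105). These 3 regions lost the call under 6, 2 and 3 of the other settings and left-out libraries tried. The scaffold unplaced-scaffold_145, from 9731 to 11635, with closer controls of 262 and 272 CPM and 159 and 155 CPM after heat (-0.77, SE 0.16, adjusted p = 0.00112), kept it in all of them.

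Where the changed regions lay in the genome was compared by their width, level and chromosome, with the level taken from the 12 libraries of the other genotypes so that the hsfb1 counts did not set it. The regions that rose were wider than those that fell, with a median width of 569 bp against 270 bp, beside 435 bp over all regions. When the regions were divided by width into 4 classes of about equal number, the narrowest class, of 63 to 205 bp, had 3.56% rising and 13.0% falling regions, and the widest, of 855 to 5432 bp, had 6.77% and 2.29%. This contrast depended on the scaling. With loess offsets, which take out trends with the count level in each library, 811 regions rose and 752 fell in the narrowest class, in place of 366 and 1331, and 800 rose and 766 fell in the widest, in place of 692 and 234. The counts also moved by over 1.5 times when a library was left out, to 163 rising and 327 falling narrow regions and 78 falling wide ones without heated replicate 2. Rising wide regions ran from 348 without control replicate 2 to 1052 without control replicate 1, while the order of rising and falling in both classes held without any 1 of the 4 hsfb1 libraries.

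Large rises were concentrated among regions with little accessibility in the other libraries. Of 10 classes of equal number by level, the lowest, between 0.688 and 17.8 CPM per kb, held 390 of the 444 regions that rose over 2-fold and 353 of the 884 that fell over 2-fold. In that class 20.1% of regions rose and 18.7% fell, against 2.10% and 4.55% in the highest class. Under loess offsets the lowest class held 494 regions that rose over 2-fold, in place of 390. A region low in the other 12 libraries may have been listed because it was open in hsfb1. Listing through the heated hsfb1 libraries would favour rises in that class, and listing through the hsfb1 controls would favour falls. Log2 changes in hsfb1 were also most widely spread there. The part of the listing or of the spread in this concentration was not tested.

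**Figure D3:**
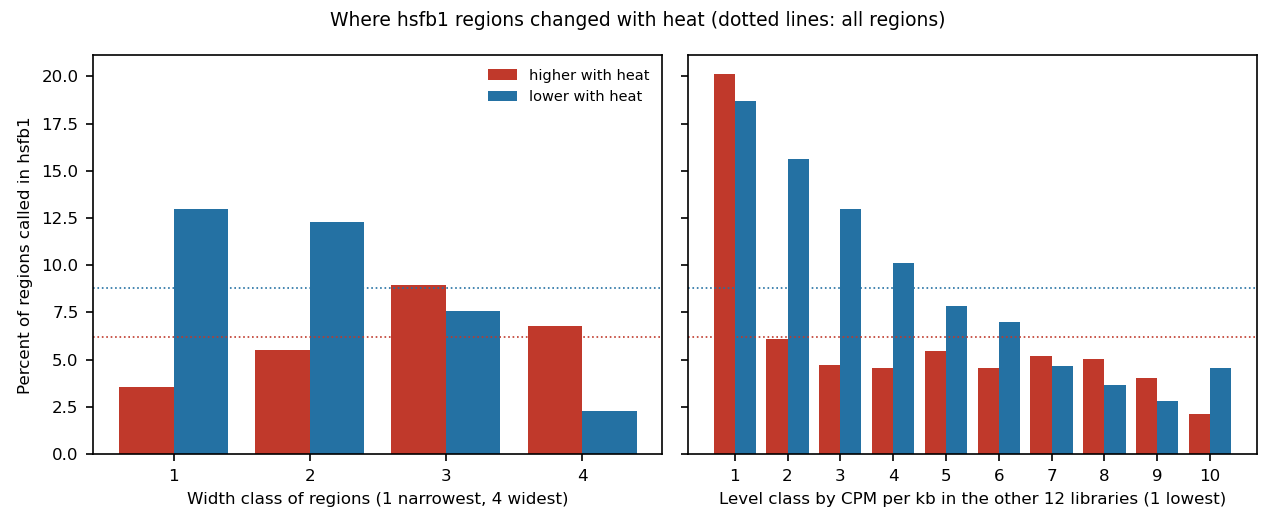
Percent of regions that rose (red) or fell (blue) with heat in hsfb1, by class of region width (left) and by class of CPM per kb in the 12 libraries of the other genotypes (right), with dotted lines at 6.19% and 8.79% for all regions. Falling regions go from 13.0% in the narrowest class to 2.29% in the widest, and rising regions from 20.1% in the lowest level class to 2.10% in the highest.

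Across chromosomes 1 to 8 the share of regions that rose ran from 5.15% on chromosome 4 to 8.02% on chromosome 1, and the share that fell from 7.34% on chromosome 1 to 10.2% on chromosome 5. On the sex chromosome V, carried by males, 4 of 137 regions rose and 21 fell (15.3%), and of 22 regions assigned to U, the female sex chromosome, 0 rose and 2 fell by edgeR. On unplaced scaffolds 4 of 95 rose and 27 fell (28.4%), where 6.19% of all regions rose and 8.79% fell. The hsfb1 controls lay apart in some of the regions named above on V and on these scaffolds. The part of this in the shares was not tested.

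How many changed regions lay alone depended on the distance allowed between neighbours. When called regions of the same direction at most 10 kb apart were chained, 1353 rising and 2053 falling regions had no partner, while 23 stretches each way held at least 5 members. Those stretches held 132 rising regions (5.22% of them) and 132 falling ones (3.67%). With a limit of 5 kb there were 10 and 11 stretches, and with 20 kb there were 46 and 54. At 20 kb 1011 rising and 1475 falling regions had no partner, so most then had one. These counts were not set against the spacing of all regions.

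Among the stretches with the most members, the densest was on chromosome 5 from 24874136 to 24884035, where all 6 regions within 9.9 kb rose, by 1.00 to 2.22. Their summed level in hsfb1 went from 46.3 and 51.5 CPM to 139 and 150 CPM. Heated Tak-1 reached nearly the same sums, 148 and 139 CPM from 39.9 and 29.7, and all 6 rose there too. In hsfa1 the sums were 40.6 and 44.1 CPM at 22 °C and 38.9 and 39.2 after heat, and in dko 40.0 and 31.1 and then 30.4 and 30.0, so in both genotypes every heated library lay below every control. The hsfb1 response was higher than that of hsfa1 in all 6 regions and higher than that of dko in 5 at an adjusted p under 0.05 by edgeR, and the former count was 4 without hsfa1 control replicate 2. Over all regions the response was higher than that of hsfa1 in 3.4% and higher than that of dko in 1.4%. The stretch was picked by its rises in the same hsfb1 libraries, which by itself favours such differences. The region in the stretch with the highest change, from 24875042 to 24876899, held 8.46 and 11.8 CPM in the hsfb1 controls and 44.0 and 49.9 CPM after heat (2.22, SE 0.18, adjusted p = 4.89e-10), beside 6.73 and 7.97 CPM in heated hsfa1 and 6.22 and 6.37 CPM in heated dko. The last of the 6, from 24882874 to 24884035, moved in opposite directions between genotypes: it rose in hsfb1 by 1.04 and in Tak-1 by 1.47, and it fell by 0.50 in hsfa1 and by 1.08 in dko.

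**Figure D4:**
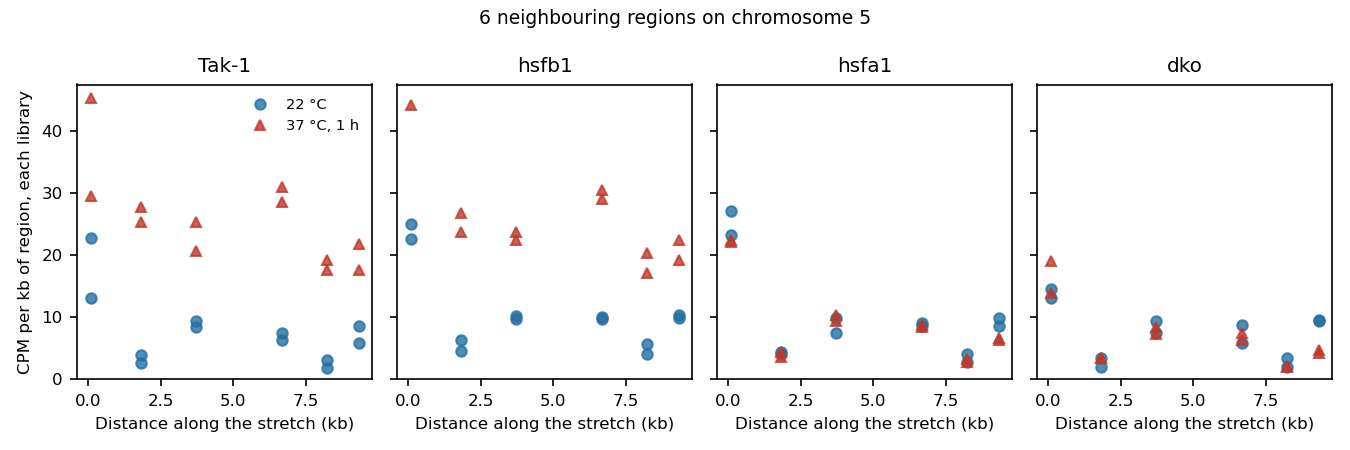
CPM per kb of region for the 6 neighbouring regions on chromosome 5 that rose in hsfb1, against their distance along the stretch in kb, with 1 panel per genotype and 1 point per library (circles 22 °C, triangles 37 °C for 1 h). Heated libraries lie above the controls throughout the stretch in Tak-1 and hsfb1 and among or below them at most of the 6 regions in hsfa1 and dko.

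The longest rising stretch, on chromosome 7 from 15745734 to 15781608, had 10 rising regions among 16 tested in 35.9 kb, with log2 changes of 0.41 to 1.74 in the 10. These summed to 135 and 131 CPM in the hsfb1 controls and 198 and 201 CPM after heat, and 6 of them also rose in Tak-1, 6 in dko and 5 in hsfa1. On chromosome 2, from 24085984 to 24122479, 7 of 14 regions rose by 0.34 to 1.64 and their sum went from 145 and 146 to 224 and 215 CPM, while 3 of them rose in Tak-1, 1 in dko and 2 in hsfa1. A falling stretch of 10 members among 18 lay on chromosome 8 from 10284362 to 10323287, where the members' sum went from 126 and 114 to 77.9 and 78.5 CPM. Of its members 5 also fell in Tak-1 and 7 each in hsfa1 and dko. Among all regions that fell in hsfb1, 39.6% also fell in wild type, with 70.8% for hsfa1 and 64.5% for dko. Among all that rose, the shares were 64.7% for wild type, 52.1% for hsfa1 and 49.0% for dko. Whether the members of a stretch were shared more or less often than these regions was not tested.

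The scaffold unplaced-scaffold_250 held 8 falling regions of 9 between 2871 and 19686, with log2 changes of -1.66 to -0.74. Their sum was 98.5 and 126 CPM in the hsfb1 controls and 55.3 and 50.0 CPM after heat. Of the 8, 0 fell in Tak-1 by edgeR, where the controls summed to 77.6 and 39.7 CPM and the heated libraries to 57.8 and 54.9 CPM, so the Tak-1 groups overlapped. In hsfa1, 7 of the 8 fell, and in dko 4 did. These counts, too, were not tested against the shares of all falling regions given above.

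The regions that changed in hsfb1 were read in the other genotypes, each of which had 4 libraries of its own. All 16 libraries shared the estimate of the spread of each region, so the calls in different genotypes are not fully independent. Of the 2531 regions that rose in hsfb1, 1638 also rose in Tak-1, 64.7% beside 12% of all regions, and they made up 33.5% of the Tak-1 list. In hsfa1 1319 rose (52.1%, beside 17.2% of all regions, 18.8% of the hsfa1 list) and in dko 1240 (49.0%, beside 13.3%, 22.9% of the dko list). The order of Tak-1 and hsfa1 rested on a hsfb1 library: without hsfb1 control replicate 1, 52.9% of the rising regions rose in Tak-1 and 69.8% in hsfa1. These shares were not recomputed without a library of Tak-1, hsfa1 or dko, so how far they rest on those libraries is not known. For the 3594 regions that fell, the order was the other way round. In Tak-1 1422 fell (39.6%, beside 13.1% of all regions, 26.6% of the Tak-1 list), in hsfa1 2545 (70.8%, beside 20.5%, 30.4% of the hsfa1 list) and in dko 2319 (64.5%, beside 16%, 35.4% of the dko list). The Tak-1 share of the falling regions moved with the scaling: it was 23.6% when libraries were scaled to their totals and 54.9% under loess offsets.

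The 54 regions that rose more than 4-fold in hsfb1 all rose in Tak-1 as well, beside 12% of all regions, with a median log2 change of 2.48. In hsfa1 16 of them rose (29.6%, beside 17.2% of all regions) and 4 fell (7.41%, beside 20.5%), with a median of 0.26. In dko 28 rose (51.9%, beside 13.3%), with a median of 0.81. Of the 32 that fell more than 4-fold in hsfb1, 25 also fell in wild type (78.1%, beside 13.1% of all regions, median log2 change -1.16). In hsfa1 31 fell (96.9%, beside 20.5%, median -1.67) and in dko 30 (93.8%, beside 16%, median -2.16). The median fall was thus short of 4-fold in wild type and hsfa1. Both lists were picked by the size of change in hsfb1, which by itself favours smaller medians elsewhere.

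Taken region by region, 698 of the rising regions (27.6%) and 920 of the falling ones (25.6%) changed the same way in all 4 genotypes. A further 528 rising regions (20.9%) were called elsewhere in Tak-1 alone, against 96 falling ones (2.67%). The reverse held for regions shared with both other mutants and not called in Tak-1, with 195 rising (7.70%) and 950 falling (26.4%). In hsfb1 alone, 337 rising regions (13.3%) and 504 falling ones (14.0%) passed the threshold. These patterns were not counted over all regions, so their shares have no background beside them. The lists they draw on were of unlike length. Of all regions, 12% rose and 13.1% fell in Tak-1, 17.2% and 20.5% in hsfa1, and 13.3% and 16% in dko. A call in 1 genotype and none in another is not a test of their difference, which was made directly.

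Compared with hsfa1, the heat response of hsfb1 was higher in 1390 regions (3.4% of all) and lower in 593 (1.45%) at an adjusted p under 0.05 for the difference of log2 changes by edgeR. With total count scaling there were 756 and 855 such regions and with loess offsets 1442 and 1012, so the direction of the balance depended on the scaling. Leaving out any 1 of the 8 libraries moved at least 1 of the counts by over 1.5 times. The higher count ran from 313 without hsfb1 control replicate 1 to 2091 without hsfb1 control replicate 2, and the lower one from 53 without hsfb1 heated replicate 1 to 1143 without hsfb1 control replicate 2. The 1390 regions had a median log2 change of 0.02 in hsfb1 and -0.91 in hsfa1. Read in Tak-1, 306 of them rose (22.0%) and 689 fell (49.6%), beside 12% and 13.1% of all regions. In dko, which also lacks HSFA1, 507 rose (36.5%) and 230 fell (16.5%), beside 13.3% and 16%. Their median log2 change in dko was 0.26, unlike that in hsfa1. The 593 regions had medians of -0.07 in hsfb1 and 0.72 in hsfa1, and in Tak-1 172 of them rose (29.0%) and 27 fell (4.55%). In dko 207 of the 593 rose (34.9%) and 49 fell (8.26%), with a median of 0.24.

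Of the 4 regions with the highest difference from hsfa1, 3 are described above. The remaining one, on chromosome 1 from 11797497 to 11797858, went from 2.08 and 2.06 to 9.12 and 8.55 CPM in hsfb1 and from 2.52 and 2.4 down to 1.08 and 0.808 CPM in hsfa1 (difference 3.47, SE 0.40, adjusted p = 3.17e-06 by edgeR). Both changes passed the test within their genotype, in opposite directions. At the other end, the chromosome 4 region from 16207818 to 16207962 went from 2.08 and 2.36 to 1.26 and 1.18 CPM in hsfb1 and from 1.85 and 1.36 up to 4.22 and 4.79 CPM in hsfa1 (difference -2.35, SE 0.39, adjusted p = 0.000734). Chromosome 5 from 5128437 to 5128567 fell in hsfb1 (-0.88) and rose in hsfa1 (1.21), at 1.28 and 1.54 CPM in the hsfa1 controls and 3.28 and 3.26 after heat, with a difference of -2.09 (adjusted p = 0.00107).

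Compared with dko, which also lacks HSFB1, the hsfb1 response was higher in 574 regions (1.4%) and lower in 582 (1.42%) by edgeR. Leaving out any 1 of the 8 libraries moved at least 1 of these counts by over 1.5 times, the higher one to as few as 190 without dko heated replicate 1 and the lower one to between 90 without that library and 874 without hsfb1 control replicate 1. The 574 regions had a median log2 change of 0.36 in hsfb1 and -0.53 in dko. In Tak-1 280 of them rose (48.8%) and 32 fell (5.57%), beside 12% and 13.1% of all regions. In hsfa1 53 rose (9.23%) and 206 fell (35.9%), beside 17.2% and 20.5% of all regions. The 582 regions had medians of -0.15 in hsfb1 and 0.77 in dko, and in Tak-1 126 rose (21.6%) and 197 fell (33.8%). In hsfa1 178 of the 582 rose (30.6%) and 205 fell (35.2%). The dko controls held 53.6% and 56.4% even counts, where the other 14 libraries held 49.7% to 50.8%, and the part of this in the differences from dko was not tested. The region with the highest difference, on chromosome 4 from 11318365 to 11318976, was set by dko: it held 47.7 and 48.3 CPM in the dko controls and 1.21 and 2.01 CPM after heat, while the hsfb1 libraries held 1.08 to 1.72 CPM in both conditions (difference 4.31, SE 0.37, adjusted p = 3.52e-08 by edgeR). In the 4 regions with the lowest difference, from -2.28 to -2.4, it was likewise dko that changed, here by rising, and the hsfb1 change missed the threshold in each. Their dko controls had means of 0.826 to 1.3 CPM, below those of the hsfb1 controls at 1.5 to 2.87 CPM. The unheated level thus entered these differences as well as the heated one. The chromosome 4 region from 2016020 to 2016274 rose in hsfa1 too (1.04).

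Because regions picked by their change in hsfb1 favour hsfb1, regions were also picked in Tak-1 and read in the 3 mutants. The 126 regions that rose more than 4-fold in Tak-1 (0.308% of all) had a median level of 2.16 and 2.38 CPM in the hsfb1 controls and 7.73 and 7.56 CPM in heated hsfb1, beside 1.47 and 1.05 and then 6.61 and 6.57 CPM in Tak-1. In hsfa1 the median levels were 1.78 and 1.83 CPM at 22 °C and 2.57 and 2.84 CPM after heat, and in dko 1.55 and 1.16 and then 2.32 and 2.36 CPM. Heated hsfb1 libraries therefore lay above heated hsfa1 and dko libraries, with no overlap. In hsfb1 121 of the 126 rose (96.0%, beside 6.19% of all regions, median log2 change 1.79). In hsfa1 46 rose (36.5%, beside 17.2%) and 9 fell (median 0.43), and in dko 63 rose (50.0%, beside 13.3%) and 0 fell by edgeR (median 0.75). The hsfb1 response was higher than that of hsfa1 in 62 of the 126 (49.2%, beside 3.4% of all regions) and lower in 2, and it was higher than that of dko in 45 (35.7%, beside 1.4%) and lower in 1.

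The shares were lower in the longer list of smaller changes. Among the 1013 regions that rose more than 2-fold in Tak-1 (2.48% of all), the hsfb1 response was higher than that of hsfa1 in 208 (20.5%) and lower in 25, and higher than that of dko in 157 (15.5%) and lower in 27. Leaving out 1 library moved the 208 to between 103, without hsfb1 control replicate 1, and 244, and the 157 to between 95, without dko control replicate 1, and 164. The left-out libraries were those of the mutants compared. No Tak-1 library was left out here, although the Tak-1 libraries picked the list. The 162 regions that fell more than 2-fold in Tak-1 (0.396% of all) mostly fell in the mutants as well: 148 fell in hsfb1 (91.4%, beside 8.79% of all regions), 156 in hsfa1 (96.3%, beside 20.5%) and 133 in dko (82.1%, beside 16%). In hsfb1 they went from medians of 5.97 and 6.07 CPM to 2.34 and 2.44 CPM. The hsfb1 response differed from that of hsfa1 in 0 upward and 3 downward and from that of dko in 1 upward and 5 downward, by edgeR.

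**Figure D5:**
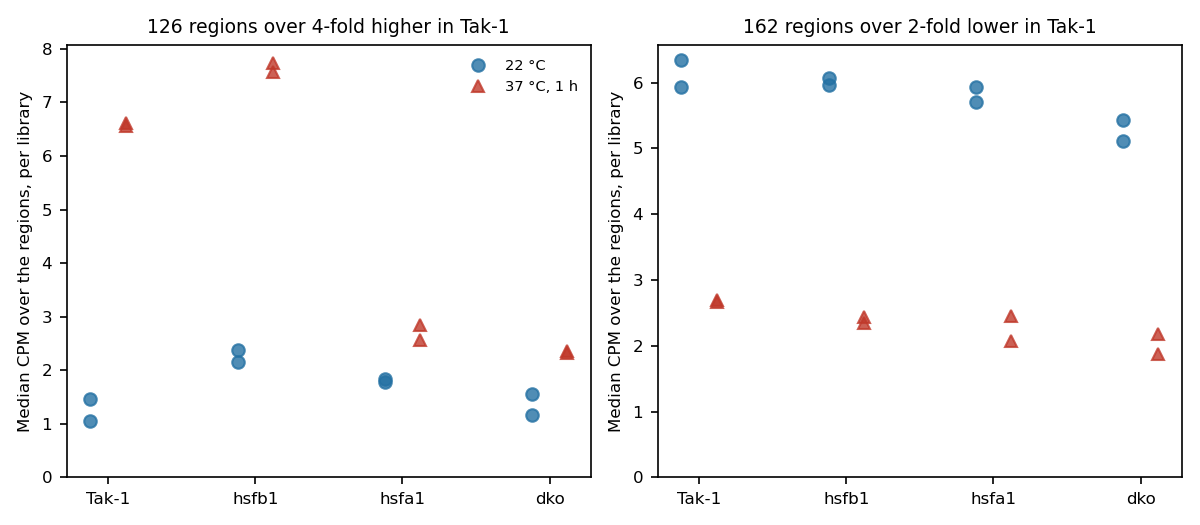
Median CPM per library over the 126 regions that rose more than 4-fold in Tak-1 (left) and the 162 that fell more than 2-fold in Tak-1 (right), for 4 genotypes, with circles for 22 °C and triangles for 37 °C for 1 h. On the left the heated libraries reach 6.57 to 7.73 CPM in Tak-1 and hsfb1 and 2.32 to 2.84 CPM in hsfa1 and dko, and on the right all 4 genotypes fall to between 1.88 and 2.70 CPM.

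Compared with wild type Tak-1, the hsfb1 response passed the threshold for a difference in 4 regions (0.00979% of all), all lower in hsfb1, and 0 were higher by edgeR. Without adjustment, 3493 regions had a higher and 3501 a lower response at p under 0.05. By DESeq2 there were 2 higher and 19 lower. Without Tak-1 control replicate 1 the counts were 6242 and 3559, and without Tak-1 heated replicate 1 they were 310 and 180, and among the left-out libraries these moved the counts most. Without hsfb1 control replicate 1 there were 28 and 57, and without any other 1 of the libraries compared 0 were higher and 1 or 2 lower.

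The region with the lowest adjusted p for a difference from wild type was on chromosome 3 from 4088942 to 4089704. In Tak-1 it rose from 6.47 and 4.59 to 19.9 and 20.9 CPM, while in hsfb1 it held 5.14 and 5.83 CPM at 22 °C and 4.25 and 4.51 CPM after heat (difference -2.20, SE 0.25, adjusted p = 4.53e-05 by edgeR). It passed the threshold under every other setting and left-out library tried. Its change in dko was 0.15 (adjusted p = 0.575), and in hsfa1 it fell by 0.77, to 5.53 and 4.32 CPM, so heated Tak-1 stood above the heated libraries of all 3 mutants.

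The chromosome 5 region from 24607865 to 24610053, 2188 bp wide, was the opposite case, in which hsfb1 stood apart from the other 3 genotypes. It held 33.5 and 30.4 CPM in the hsfb1 controls and 29.5 and 31.2 CPM after heat, while it rose to 57.6 and 63.0 CPM in Tak-1, to 55.0 and 55.5 CPM in hsfa1 and to 51.6 and 55.6 CPM in dko. The control libraries of all genotypes lay between 30.4 and 35.8 CPM. The hsfb1 response was lower than each of theirs, with differences of -0.84 from Tak-1 (SE 0.15, adjusted p = 0.0438), -0.80 from hsfa1 (adjusted p = 0.00282) and -0.75 from dko (adjusted p = 0.00488), all by edgeR. These comparisons share the hsfb1 libraries, and dko also lacks HSFB1. The call against dko was lost without dko control replicate 2 (adjusted p = 0.0516), and the call against hsfa1 was kept in every alternative tried.

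In the chromosome 4 region from 1846755 to 1847856 hsfb1 itself rose, from 8.27 and 9.78 to 12.0 and 12.9 CPM (0.47, SE 0.15, adjusted p = 0.036 by edgeR), and the other genotypes rose further, to heated levels of 14.7 to 24.4 CPM. The difference was -1.20 from Tak-1 (adjusted p = 0.0438), -0.88 from hsfa1 (adjusted p = 0.0144) and -1.02 from dko (adjusted p = 0.00638). The Tak-1 controls, at 5.15 and 5.08 CPM, lay below those of hsfb1, so the unheated level entered the difference from Tak-1 as well as the heated one. The hsfa1 controls, at 9.45 and 8.78 CPM, and the dko controls, at 9.12 and 6.28 CPM, lay nearer to those of hsfb1. The calls against hsfa1 and dko were each lost without 3 of the libraries, left out in turn, with adjusted p up to 0.107 and 0.0812.

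The remaining region, on chromosome 6 from 21831264 to 21831737, fell in hsfb1 from 9.86 and 12.4 CPM to 4.07 in both heated libraries (-1.45, SE 0.16). It fell by 1.82 in dko and by 0.53 in hsfa1, while Tak-1 changed by -0.22, short of the threshold (adjusted p = 0.248 by edgeR). The heated libraries of the genotypes without HSFB1 lay at 3.03 to 4.07 CPM and those of Tak-1 and hsfa1 at 7.30 to 9.89 CPM. The hsfb1 response was lower than those of Tak-1 (difference -1.22, adjusted p = 0.0438) and hsfa1 (difference -0.91, adjusted p = 0.0126), and its difference from dko was 0.37 (SE 0.23, adjusted p = 0.428). The call against hsfa1 was lost without 4 of the libraries, left out in turn, with adjusted p up to 0.0865. Against Tak-1, the regions on chromosomes 6, 4 and 5 missed the threshold under 9, 10 and 6 other settings.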

How the data were processed

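ATAC-seq was measured in sorted nuclei, and the deposited values are raw counts of reads per accessible region, without normalization, made by the authors. The submitters' processing notes name Bowtie2 2.4.4, MACS2 2.2.7.1 and featureCounts of Subread 2.0.6, beside fastp 0.24.0 and other tools. The genome build, the treatment of duplicates and the counting from 0 or 1 of region starts are not given in the sources used here. Starts are printed as deposited. Samples were grouped by their labels.

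All 16 Marchantia heat libraries were fitted together with edgeR 4.0.16 (limma 3.58.1, R 4.3.3), with a mean for each of the 8 groups, TMM scaling and the quasi-likelihood F test. Contrasts were heat minus control in hsfb1 and the difference of that response from those of Tak-1, hsfa1 and dko. P-values are two-sided, with Benjamini-Hochberg adjustment over 40873 regions, with a threshold of 0.05, and the low-count filter removed 0 regions. SE is the size of a log2 value divided by the root of its F statistic. Levels are CPM with TMM factors.

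Regions are named if called with a mean of at least 50 counts over the libraries of the contrast. They are the 10 highest and 10 lowest in log2 change and the 4 largest rises and 4 largest falls in CPM for hsfb1, the 4 each way for the differences from hsfa1 and dko, and all called against Tak-1. The regions, lists and tests were chosen with earlier results of these data known. Replicate numbers were not treated as pairing libraries, since deviations from group means correlated over 0.1 in 6 of 28 pairs of groups, and at -0.226 between hsfb1 control and heat. In simulated data with 200 changed regions, 88% of 2-fold and 42% of 1.5-fold changes were found in the hsfb1 heat response, with 3 false calls. The difference tests found 58% and 6% with 6 against hsfa1, 63% and 6% with 7 against dko, and 62% and 9% with 6 against Tak-1. Simulated replicates had 1 spread per region for all groups, unlike the libraries here. Alternatives were DESeq2 1.42.0, total count scaling, loess offsets, other filters, replicate blocks, only the libraries compared and leaving out each library. The planned motif and heat shock gene lists could not be read without a genome of the build used, and the libraries of abscisic acid treatment and of Arabidopsis were not used here.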

Additional observations from a re-analysis of the deposited data

Results flagged for a closer look

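Each value here is a difference of log2 heat responses between hsfb1 and another genotype that passed an adjusted p of 0.05 in edgeR's interaction test, and no explanation was tested. Over all regions, 4 responses were lower than in Tak-1, 1390 higher and 593 lower than in hsfa1, and 574 higher and 582 lower than in dko.

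Against Tak-1 the responses lower in hsfb1 were chromosome 3 from 4088942 (-2.20), chromosome 6 from 21831264 (-1.22), chromosome 4 from 1846755 (-1.20) and chromosome 5 from 24607865 (-0.84). The last 3 were also lower than in hsfa1, by -0.91, -0.88 and -0.80, and the last 2 were lower than in dko, by -1.02 and -0.75.

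Regions with a higher response than in both hsfa1 and dko were, with the value against hsfa1 first, chromosome 6 from 23014005 (4.04 and 2.97), chromosome 7 from 10377869 (3.88 and 3.12) and from 10378549 (3.26 and 3.13), and chromosome 6 from 21511931 (3.78 and 3.11). The same held for chromosome 1 from 11797497 (3.47 and 2.32), chromosome 3 from 8153723 (2.03 and 2.4), chromosome 5 from 22401141 (2.17 and 1.47) and chromosome 2 from 3009433 (1.06 and 0.89). Against hsfa1 the response was also higher on chromosome 6 from 5667723 (3.02) and from 1294093 (2.48), on chromosome 8 from 1908595 (2.66) and on chromosome V from 7408048 (1.23). It was lower on chromosome 3 from 2227424 (-2.54) and from 13197176 (-1.47), on chromosome 4 from 16207818 (-2.35) and from 24589553 (-2.21), and on chromosome 5 from 5128437 (-2.09).

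Against dko it was higher on chromosome 4 from 11318365 (4.31) and from 13310613 (0.63) and on chromosome 2 from 15866887 (3.44) and from 15051217 (1.83). It was lower on chromosome 1 from 20894230 (-2.4), on chromosome 4 from 2016020 (-2.32) and from 8616863 (-2.29), on chromosome 8 from 2916326 (-2.28), on chromosome 5 from 5124492 (-1.58) and on unplaced-scaffold_330 from 3107 (-1.31). In the chromosome 4 region from 11318365 and the chromosome 2 region from 15866887 the hsfb1 change missed the threshold, and the control libraries of dko stood far above those of the other genotypes.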

How the results depend on the processing

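The hsfb1 counts stayed within 1.5 times under DESeq2 (2686 rising and 3233 falling), total count scaling (1926 and 2989), loess offsets (3283 and 3449), a mean of at least 50 counts (3115 and 2998, so that more rose than fell) and a replicate block shared by all groups (2362 and 3390) or within each genotype (2902 and 3886). Replicate numbers crossed within hsfb1, tried after seeing the data, gave 3347 and 4371. Leaving out 1 library gave 1241 to 2419 rising and 1016 to 2464 falling regions, and 428 to 601 and 571 to 1009 over 2-fold, where loess offsets gave 469 falling. Where a group kept 1 library, it was assumed to vary like the others.

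Differences from Tak-1 numbered 2 higher and 19 lower by DESeq2, 2 lower with total count scaling or loess offsets, 1 lower with the shared replicate block or with only the 8 libraries compared, and 55 and 109 with the replicate block within each genotype. They ran from 0 to 6242 higher and 1 to 3559 lower without 1 library. Total count scaling moved the median difference from Tak-1 over all regions to -0.211. Differences from hsfa1 were 756 higher with total count scaling, 1012 lower with loess offsets, 1005 lower with the replicate block within each genotype, 2750 and 1657 with only the 8 libraries compared, and 313 to 2091 and 53 to 1143 without 1 library. Differences from dko were 324 and 244 with total count scaling, 979 lower with the replicate block within each genotype, 1782 and 1608 with only the 8 libraries compared, and 190 to 484 and 90 to 874 without 1 library. Stretches numbered 10 rising and 11 falling at 5 kb and 46 and 54 at 20 kb. The causes were not tested.

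For named regions, 353 of 364 alternative values kept the hsfb1 call, and of the called differences 285 of 317 values did against hsfa1, 287 of 320 against dko and 39 of 64 against Tak-1. No direction turned among these values. Against hsfa1, the calls lost most often were chromosome V from 7408048 (11 alternatives) and chromosome 3 from 8153723 (7), and against dko chromosome 5 from 5124492 (10), chromosome 4 from 13310613 (9) and chromosome 2 from 15051217 (8). With 2 libraries a group, 42% of simulated 1.5-fold changes were found in the hsfb1 response and 6% to 9% in the differences, and smaller changes were not simulated.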
